A study of Daphnia magna with 12 samples.

Results

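In Daphnia magna, 136 of 4247 array probes were at least 2-fold lower after exposure to dissolved copper chloride (CuCl2) than in unexposed animals, but not after exposure to copper oxide (CuO) nanoparticles. They were chosen by their measured values. For each probe the plain means of the CuO, CuCl2 and blank arrays were taken from the deposited log ratios, and a probe entered when CuCl2 minus blank was at most -1 and CuO minus blank was above -1. The description "lowered only by CuCl2" holds for these probes by the thresholds alone. CuO minus blank was below 0 for 135 of them, with a median of -0.83, beside a median of -1.17 for CuCl2 minus blank. Their CuCl2 values differed between pools, with pool 4 the lowest of its group for 97 of the 136 probes and pool 2 the highest for 118. The gap between the copper forms was wider on the cy5 arrays, which hold CuCl2 pools 3 and 4, than on the cy3 arrays, which hold pools 1 and 2.

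The animals were exposed for 96 hours in ISO test medium, fed on the green algae Pseudokirchneriella subcapitata and Chlamydomonas reinhardtii, with the medium and the copper renewed after 48 hours. One group received CuO nanoparticles, one the salt CuCl2.2H2O (called CuCl2 here), and the blank group no added copper. Each copper form was given at its own EC10 for immobilisation, which sets the doses equal in effect, while the copper masses may differ. There were 4 replicates of each group, each the whole-body RNA of 40 pooled daphnids whose age at sampling is labelled 96 hours. Each pool shared 1 two-colour array with a reference mixed in equal parts from the 3 groups. Pools 1 and 2 of every group carried the dye cy3 and pools 3 and 4 carried cy5. A pool of whole animals gives no value for a tissue or a single animal, and fewer cells of a type and less RNA per cell cannot be told apart in it.

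Daphnia magna is a small freshwater crustacean that filters algae and other particles from the water, and it is a standard animal in toxicity tests. Copper is an essential metal for it, used in enzymes and in the oxygen carriers of many crustaceans, and becomes toxic in excess. Copper chloride gives copper ions directly. Copper oxide nanoparticles can be swallowed as particles and also dissolve in part, so animals exposed to them can meet both forms. The probe names are those of the array, 0 of the 4247 were found in the RefSeq gene table of the species (assembly ASM2063170v1.1), and no probe sequence was used here. The probes are therefore described by name and value, without a gene or a role.

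All values are log ratios of a pool to the reference, read on the log2 scale, so that a difference of -1 is a 2-fold lower level. Neither the log base nor the direction is stated in the sources used here. Sample over reference is the likely direction from the design, because with a reference mixed equally from the groups the linear ratios of a probe should average 1. Over all probes the log2 of that average had a median of -0.0005 as deposited and 0.05 with the sign turned, a small difference. Over the 136 the values were 0.03 and 0.16, but these probes were selected on low values, which widens that difference. With the sign turned, every "lower" below would read "higher". Over all probes, arrays of one dye orientation correlated down to r = -0.55 (CuCl2 pool 4 and blank pool 3). The dyes are stated in the labels, and a reference made from all groups can lie between blank and copper pools, so no array was turned. The SD of the log ratios over all probes was 0.357 on the array of CuO pool 4, where the other CuO arrays had 0.429 to 0.439. It was 0.711 on that of CuCl2 pool 4, where the other CuCl2 arrays had 0.386 to 0.434. The results for CuCl2 are therefore given with and without its pool 4. Leaving out 1 array leaves unequal numbers of cy3 and cy5 arrays in its group. Values without a pool are therefore taken from the fit of group and dye orientation, which equals the plain difference when all 12 arrays are used.

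Most of the probes also had low CuO values. CuO minus blank was at most -0.9 for 37 of them, above -0.9 and up to -0.75 for 57, above -0.75 and up to -0.5 for 37, and above -0.5 for 5. The 1 probe with CuO above blank was DM06182P1. The difference CuO minus CuCl2 had a median of 0.38 (middle 50% of the probes 0.27 to 0.47, range 0.02 to 1.86), against a median of 0.02 over all probes. It was under 0.25 for 29 probes and at least 1 for 5. These values describe the choice and were not tested, since the rule fixed the side of both differences. CuO minus blank and CuCl2 minus blank also share the 4 blank pools, so a probe whose blanks are high by chance is low in both. The values on arrays that took no part in the choice, given further on, do not carry that chance.

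**Figure D1:**
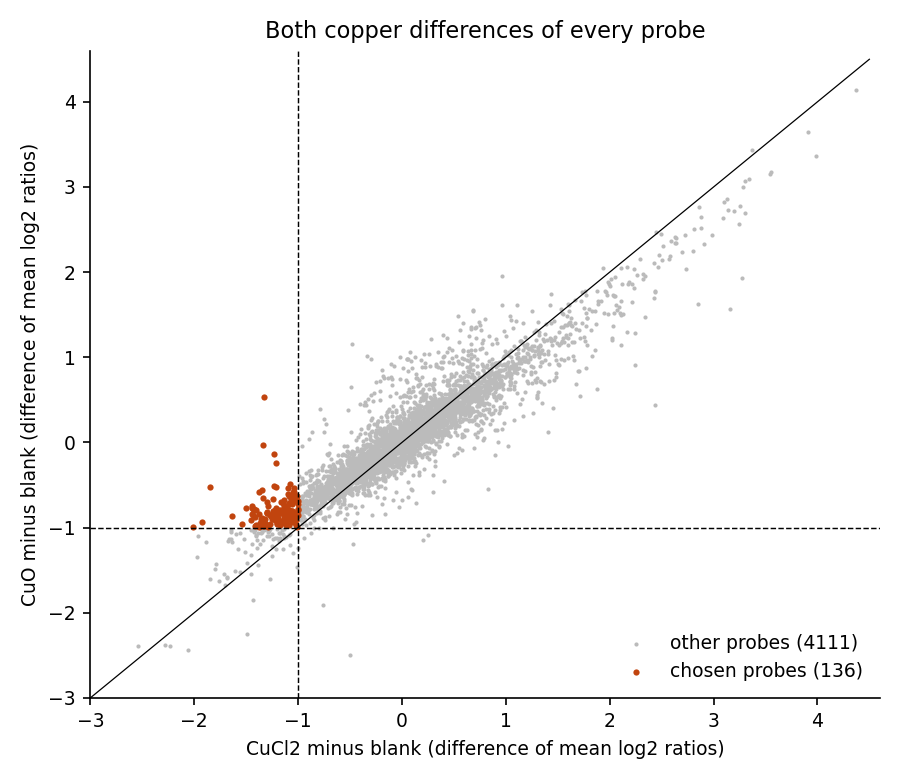
CuCl2 minus blank (horizontal) and CuO minus blank (vertical), as differences of mean log2 ratios, for each of the 4247 probes. Dashed lines mark -1, the solid line marks equal differences, and the 136 chosen probes (orange) fill the wedge above the lower dashed line, nearly all between -1 and -0.5 for CuO.

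The thresholds lay in the lower tail of all probes, but many of the chosen probes stood close to them. For CuCl2, DM06508P2, DM07430P1 and DM10732P1 lay just inside at -1.0001, -1.0001 and -1.002, and DM02680P2, DM00218P3 and DM10936P1 just outside at -0.999, -0.994 and -0.989. For CuO, DM06347P3, DM13326P4 and DM07367P1 lay just inside at -0.999, -0.998 and -0.989, and DM07137P3, DM05888P1 and DM06031P1 just outside at -1.012, -1.015 and -1.016. Between -1.1 and -1 for CuCl2 there were 45 of the chosen probes, and 53 others lay between -1 and -0.9. Between -1 and -0.9 for CuO there were 37 chosen probes, and 30 others lay between -1.1 and -1. With both thresholds at -1.2 in place of -1, 98 probes met the rule, 61 of them among the 136. With a CuO minus CuCl2 of at least 0.5 required as well, 31 were left.

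The pools of a group did not carry the difference evenly. Values centred within each dye orientation show this, because they remove the offset between cy3 and cy5. The median of the 136 probes was -0.15, -0.26, -0.23 and 0.16 on the arrays of CuO pools 1 to 4, -0.64, -0.04, -0.43 and -0.96 on those of CuCl2 pools 1 to 4, and 0.40, 0.74, 0.64 and 0.90 on those of blank pools 1 to 4. The medians of the 8 copper arrays all lay below those of the 4 blanks. Between the copper groups they overlapped, since CuCl2 pool 2 lay above 3 of the CuO pools. As mean ± SD of the 4 array medians, the groups stood at -0.12 ± 0.19 for CuO, -0.52 ± 0.38 for CuCl2 and 0.67 ± 0.21 for blank (n = 4 each).

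**Figure D2:**
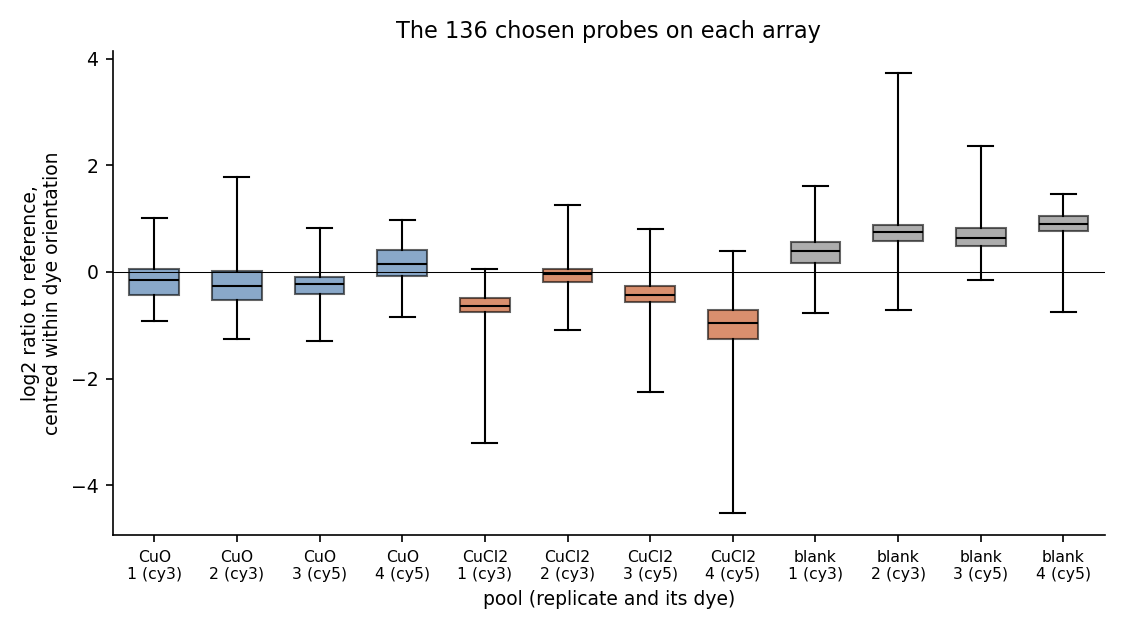
Log2 ratio to the reference, centred within each dye orientation, of the 136 chosen probes on each of the 12 arrays. Boxes span the middle 50% with the median as a line, and whiskers reach the lowest and highest probe. CuCl2 pool 4 has the lowest median, -0.96, and CuCl2 pool 2, at -0.04, lies among the CuO pools.

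In the CuO group the lowest value of the 136 probes was spread over pool 1 (55 probes), pool 2 (46), pool 3 (28) and pool 4 (7). CuCl2 pool 4 was the lowest of its group for 97 of the 136 (71.3%), and it was the lowest for 33.1% of all probes. Pool 1 was the lowest for 28, pool 3 for 9 and pool 2 for 2. CuCl2 pool 2 was the highest of its group for 118. In the blank group pool 1 was the lowest for 88 probes and pool 4 the highest for 84.

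Set against the mean of the blanks of its own dye, CuO pools 1 to 4 had medians of -0.71, -0.82, -1.03 and -0.63. CuCl2 pools 1 to 4 had medians of -1.201, -0.60, -1.19 and -1.74. The order of the 8 copper pools thus mixed the 2 forms. The medians of CuO pools 1 to 4 all lay below that of CuCl2 pool 2, that of CuO pool 4 only slightly. At least a 2-fold lower value than these blanks was found for 30, 50, 75 and 19 of the 136 probes in CuO pools 1 to 4, and for 95, 8, 104 and 126 in CuCl2 pools 1 to 4. Over all probes these shares ran from 2.14% to 5.18% in the CuO pools and from 1.77% (pool 2) to 12.2% (pool 4) in the CuCl2 pools.

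None of the 136 probes was 2-fold lower than the blanks of its dye in all 4 pools of either copper form. For CuO the rule fixed this, because the 4 pool values average to CuO minus blank. In the same way the rule excluded a probe that reached that level in no CuCl2 pool. For CuO, 25 reached that level in no pool, 54 in 1, 51 in 2 and 6 in 3. For CuCl2, 11 reached it in 1 pool, 53 in 2 and 72 in 3. Of the 82 probes at or below -1 in both copper groups, chosen by the same means, 11 reached it in all 4 CuO pools and 25 in all 4 CuCl2 pools. The contrast for CuO is thus built into the 2 rules. On CuCl2 pool 2 their median stood at -0.98. On CuCl2 pool 4 it stood at -1.66, which was less low than the -1.74 of the 136. These are descriptions of 2 sets that the same values separated.

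**Figure D3:**
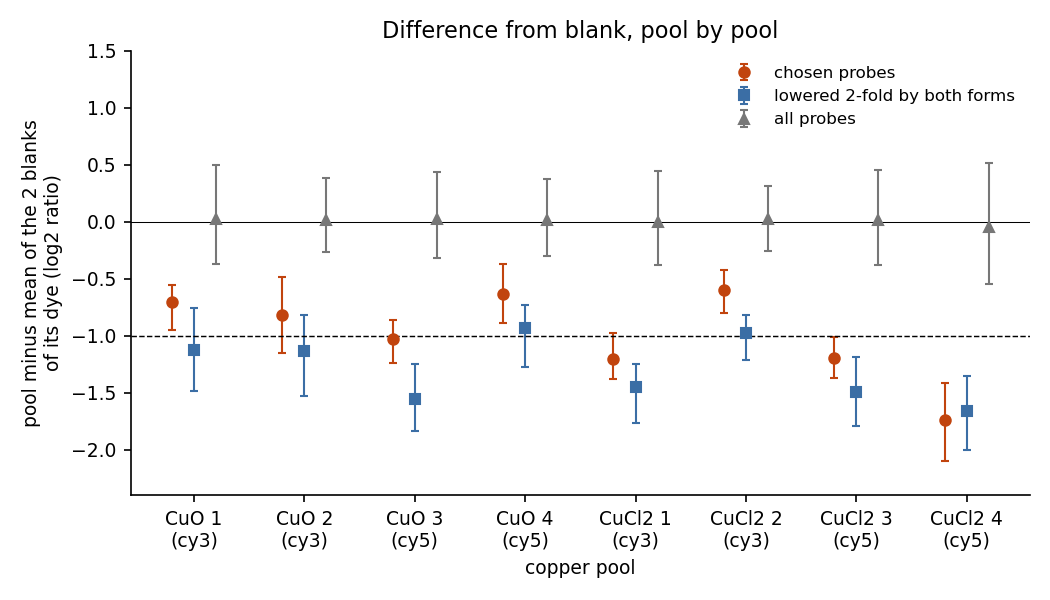
Each copper pool minus the mean of the blanks of its dye orientation (log2 ratio), as the median with bars for the middle 50% of the probes, for the 136 chosen probes, the 82 at or below -1 in both copper groups, and all 4247. The chosen probes reach -1.74 in CuCl2 pool 4 and -0.60 in CuCl2 pool 2, and CuO pool 3 lies at -1.03.

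Without CuCl2 pool 4, and with the 136 probes kept as chosen, the median of CuCl2 minus blank was -1.02 and that of CuO minus CuCl2 was 0.21, against 0.006 over all probes (dye-adjusted). CuCl2 minus blank was still at or below -1 for 74 of them, and CuO minus CuCl2 was at or below 0 for 10. Applied anew to dye-adjusted differences without that pool, the rule met 87 probes, 74 of them among the 136. Without CuCl2 pool 2 instead it met 207, of which 134 were among the 136. Leaving out any of the other 10 arrays gave between 95 and 162. Between 89 (without blank pool 1) and 132 (without CuO pool 3) of the 136 were among these. Without blank pools 1 to 4 in turn, 89, 100, 102 and 99 of the 136 still met the rule, so membership depended on single blank pools too. Plain means, which leave the dyes unequal, gave 68 probes without CuCl2 pool 4 and 243 without CuCl2 pool 2. Leaving out CuCl2 pools 2 and 4 together, the highest and the lowest, keeps 1 CuCl2 array of each dye, and 159 probes then met the rule, 116 of them among the 136 (85.3%). After scaling every array to one median absolute deviation, which narrows the array of CuCl2 pool 4, 91 probes met the rule, of which 71 were among the 136. With quantile normalization 96 did, of which 85 were.

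The probes with the lowest CuCl2 minus blank owed much of that difference to CuCl2 pool 4. DM06347P3, the lowest, had log2 ratios of 0.27, -0.43, -1.202 and -0.29 in CuO pools 1 to 4, -0.52, 0.24, -1.62 and -3.81 in CuCl2 pools 1 to 4, and 0.86, 0.94, 0.19 and 0.35 in blank pools 1 to 4. Its CuO minus blank was -0.999 and its CuCl2 minus blank was -2.01, or -1.36 without CuCl2 pool 4. After dye centring, CuCl2 pools 2 and 3 (0.02 and -0.56) lay within the CuO range of -0.66 to 0.78, and CuCl2 pools 1 and 4 (-0.75 and -2.75) below it. The probe missed the set lowered by both forms by 0.001.

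DM06747P2 had -0.01, -0.76, -0.80 and -0.20 in the CuO pools, -0.65, 0.21, -1.83 and -3.47 in the CuCl2 pools, and 0.46, 0.73, 0.33 and 0.45 in the blanks. As deposited, CuCl2 pool 2 was the highest of its 8 copper values, but after dye centring CuO pool 4 was, at 0.72 against 0.21. CuCl2 pool 4 was the lowest either way. CuCl2 minus blank was -1.93, and -1.34 without CuCl2 pool 4.

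DM12189P1 was the extreme case, with -0.10, 0.26, -0.64 and -0.59 in the CuO pools, -0.36, 0.09, -0.41 and -5.73 in the CuCl2 pools, and 0.43, 0.44, -0.12 and 0.26 in the blanks. As deposited, only CuCl2 pool 4 lay outside the range of the CuO and blank pools. After dye centring CuCl2 pool 1, at -0.48, also lay below that range (lowest CuO value -0.22), and pool 4 stood at -4.52. CuCl2 minus blank was -1.85 with it and -0.55 without it, and CuO minus CuCl2 was 1.33 with it and 0.04 without it. DM06476P3 also had a CuCl2 pool 4 far below its other values. It had -0.35, -0.03, -0.72 and 0.12 in the CuO pools, -0.09, 0.12, -0.66 and -3.28 in the CuCl2 pools, and -0.33, 0.83, 0.67 and 0.91 in the blanks. Its CuCl2 minus blank was -1.50 with CuCl2 pool 4 and -0.73 without it.

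DM12273P3 and DM04535P1 were lower in more than 1 pool. DM12273P3 had 0.40, -0.17, -0.80 and 0.06 in the CuO pools, -0.58, 0.07, -0.78 and -2.30 in the CuCl2 pools, and 0.76, 1.21, 0.33 and 0.66 in the blanks. DM04535P1 had -0.22, 0.19, -0.61 and -0.18 in the CuO pools, -0.53, 0.15, -0.70 and -2.07 in the CuCl2 pools, and 0.60, 1.09, 0.50 and 0.80 in the blanks. All 8 copper values of DM04535P1 lay below its 4 blank values. Without CuCl2 pool 4 the CuCl2 minus blank values were -1.25 for DM12273P3 and -1.17 for DM04535P1.

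The widest gap between the copper forms belonged to DM06182P1, with 0.74, 0.58, 0.57 and 0.24 in the CuO pools, -3.49, 0.24, 0.17 and -2.24 in the CuCl2 pools, and -0.75, 1.02, 0.75 and -1.004 in the blanks. It was the 1 probe of the 136 (0.7%) whose 4 CuCl2 values, as deposited, all lay below its 4 CuO values, where 0.659% of all probes showed that order. The order rested on 0.236 in CuCl2 pool 2 (cy3) against 0.243 in CuO pool 4 (cy5). After dye centring these values were 0.51 and 0.49, and the order was lost. The CuCl2 pools fell into 2 low and 2 near the CuO level, and the blanks also split 2 and 2. Its lowest CuCl2 value was that of pool 1. CuO minus CuCl2 was 1.86, 1.06 without CuCl2 pool 1 and 1.52 without CuCl2 pool 4. CuCl2 minus blank was -1.33, -0.53 without CuCl2 pool 1 and -0.99 without CuCl2 pool 4.

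DM07114P2 had 0.43, 0.72, -0.44 and -0.17 in the CuO pools, -0.59, 0.62, -1.49 and -3.19 in the CuCl2 pools, and 0.61, 0.17, 0.67 and -0.77 in the blanks. Its CuO minus blank of -0.03 was among the nearest to 0. After dye centring its CuCl2 values ran from 0.29 in pool 2 to -2.30 in pool 4, beside a CuO mean of 0.42. Without CuCl2 pool 4, CuCl2 minus blank was -0.80 in place of -1.33 and CuO minus CuCl2 was 0.77 in place of 1.30.

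DM07834P1 had 0.57, 0.30, -0.51 and -0.82 in the CuO pools, -1.14, 0.81, -1.09 and -3.39 in the CuCl2 pools, and -0.16, -0.47, 1.38 and -0.64 in the blanks. The groups of DM07834P1 overlapped throughout, and its CuCl2 minus blank was -2.61 on the cy5 arrays and 0.15 on the cy3 arrays. Its CuCl2 minus blank was -1.23 with all pools, -0.57 without CuCl2 pool 4 and -0.57 without blank pool 3. Its CuO minus CuCl2 was 1.09, and 0.43 without CuCl2 pool 4.

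DM05482P1 differed from it in that its CuCl2 pools lay close together. It had 0.57, 1.94, -0.15 and -0.62 in the CuO pools, -0.41, -0.23, -0.55 and -0.96 in the CuCl2 pools, and -0.33, -0.56, 2.59 and 0.99 in the blanks. The spread lay in the blanks and in the CuO pools, with blank pool 3 the highest value of all. CuO minus blank was 1.698 with cy3 and -2.18 with cy5, and CuCl2 minus blank was 0.12 with cy3 and -2.54 with cy5. Without blank pool 3, CuCl2 minus blank was -0.50 in place of -1.21, and CuO minus blank was 0.47 in place of -0.24.

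**Figure D4:**
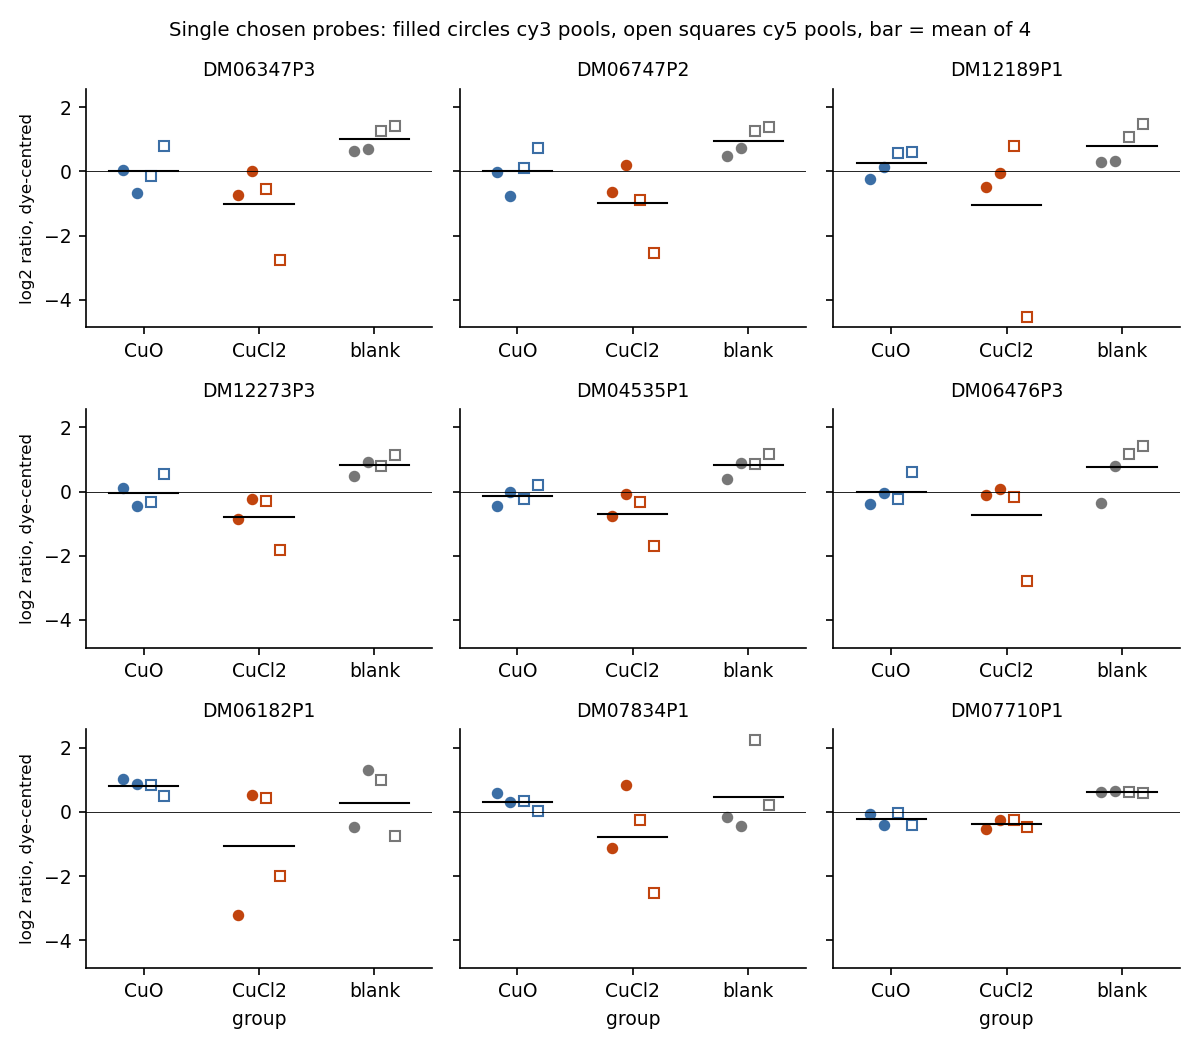
Dye-centred log2 ratios of 9 chosen probes in the CuO, CuCl2 and blank pools (circles cy3, squares cy5, bar the mean of 4). In DM06347P3, DM06747P2, DM12189P1 and DM06476P3 one CuCl2 square, pool 4, lies far below the rest, whereas in DM07710P1 all 8 copper values lie together below the blanks.

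The probes with the least scatter showed a different picture, in which both copper forms stood close together under the blanks. DM07710P1, with the smallest residual SD (0.159), had -0.02, -0.37, -0.13 and -0.52 in the CuO pools, -0.49, -0.20, -0.36 and -0.57 in the CuCl2 pools, and 0.65, 0.71, 0.54 and 0.49 in the blanks. Every copper value lay below every blank, and the copper groups overlapped. Its CuO minus CuCl2 was 0.15, so that -0.86 for CuO and -1.004 for CuCl2 fell on either side of the threshold. DM07820P1 had a CuO minus blank of -0.91 and a CuCl2 minus blank of -1.02, with a residual SD of 0.184. For DM05824P1 the values were -0.84 and -1.14, with a residual SD of 0.228. Over the 136 probes the residual SD had a median of 0.415, against 0.234 over all probes and 0.432 over the 82 lowered by both forms. A choice by size favours probes of larger scatter, so this difference was not tested.

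Choosing by a difference favours probes whose scatter enlarges it in the same arrays, so the choice was repeated on one dye orientation and read on the other. The 2 sets of arrays had no pool in common, though every array held the same reference RNA. The rule met 253 probes on the 6 cy5 arrays. On those arrays their median was -0.73 for CuO minus blank, -1.23 for CuCl2 minus blank and 0.53 for CuO minus CuCl2. On the cy3 arrays the same probes had medians of -0.60, -0.62 and 0.05, and over all probes the last was 0.005. The median CuO and CuCl2 differences thus lay nearly level where the probes had not been chosen, and both were below 0, with CuCl2 minus blank below 0 for 233 and CuO minus blank for 230 of the 253. CuO exceeded CuCl2 for 146 of the 253. Over all 4247 probes on these arrays, CuCl2 minus blank was below 0 for 2076 and CuO minus blank for 2044, and CuO exceeded CuCl2 for 2163. The level values joined 2 unlike CuCl2 pools. CuO minus CuCl2 was 0.29 against CuCl2 pool 1 alone, above 0 for 207, and -0.21 against CuCl2 pool 2 alone, above 0 for 47. Over all probes these 2 medians were 0.01 and 0.002.

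In the other direction, the rule met 64 probes on the 6 cy3 arrays, with medians there of -0.85 for CuO minus blank, -1.11 for CuCl2 minus blank and 0.28 for CuO minus CuCl2. On the cy5 arrays these probes had medians of -0.94, -1.33 and 0.45. CuO exceeded CuCl2 there for 53 of the 64, and for 2278 of all 4247 probes. The gap did not shrink in this direction, and the reading arrays held CuCl2 pool 4. Read against CuCl2 pool 3 alone it was 0.21, and against CuCl2 pool 4 alone 0.54, where all probes had 0.001 and 0.04. After scaling every array to one median absolute deviation it was 0.15, and 0.17 after quantile normalization. Only 22 probes met the rule in both orientations, 34.4% of the 64 and 8.7% of the 253. Of the 136, 38 met it with cy3, 92 with cy5, 22 with both and 28 with neither.

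**Figure D5:**
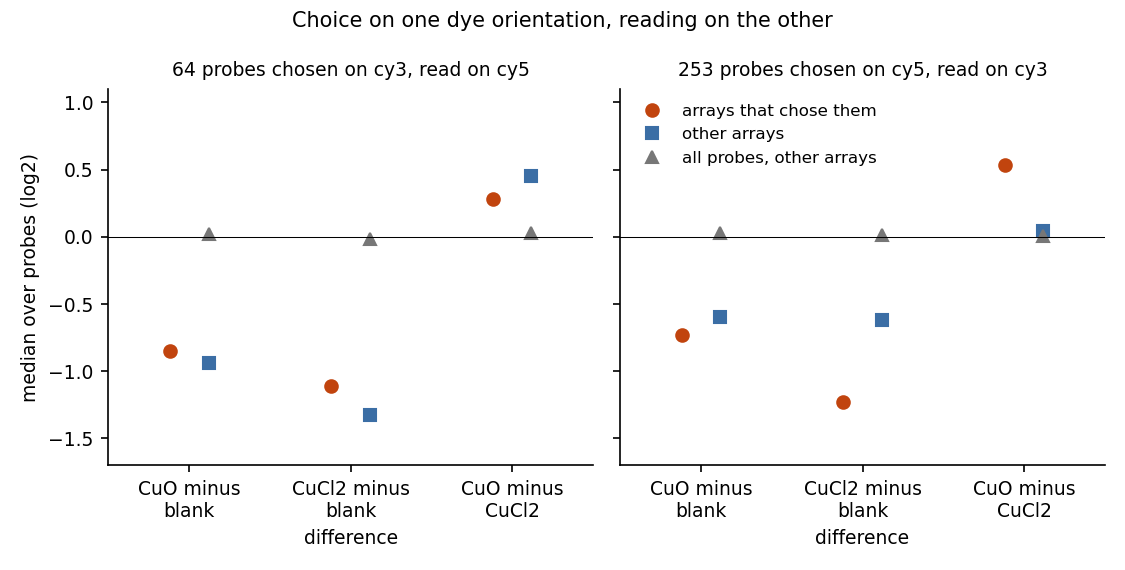
Medians of the 3 differences (log2) for probes that met the rule on one dye orientation, on the choosing arrays (circles) and on the other arrays (squares), with all probes on the other arrays (triangles). For the 253 probes chosen on cy5, CuO minus CuCl2 is 0.53 on the choosing arrays and 0.05 on the others, while both copper forms remain about 0.6 under blank.

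Because the reading arrays took no part in the choice, the probes could be tested on them, with limma fitted to all 4247 probes on those 6 arrays. Of the 64 chosen on cy3, 34 (53.1%) were called lower in CuCl2 than in blank on the cy5 arrays at an adjusted p under 0.05, against 12.3% of all probes. For CuO against blank 5 were called lower (7.8%), against 1.04% of all probes. Lower in CuCl2 than in CuO were 0 of the 64 and 0% of all probes, and at an unadjusted p under 0.05 there were 6 (9.4%), against 4.36%. The smallest adjusted p for CuO against CuCl2 among the 64 was 0.611 (limma). Lower values under CuCl2 than in blank were thus called in pools that had not chosen the probes, for 34 of 64, while no difference between the forms passed. CuCl2 against blank at an unadjusted p under 0.05 was met by 50 of the 64 and by 21.6% of all probes.

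The cy3 arrays made few calls on any probe. Of the 253 chosen on cy5, 0 were called lower in CuCl2 than in blank on the cy3 arrays (limma, smallest adjusted p = 0.0641), 0 in CuO than in blank, and 0 in CuCl2 than in CuO. The shares of all probes were 0.0706%, 0.0706% and 0%. At an unadjusted p under 0.05, 94 (37.2%) were lower in CuCl2 than in blank, against 9.28% of all probes. None was lower in CuCl2 than in CuO at that level, against 1.04% of all probes. A p that misses the threshold does not show that the 2 copper forms act alike on these probes.

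Within the 136 probes themselves the orientation split was wide. With cy3 the medians were -0.80 for CuO minus blank, -0.89 for CuCl2 minus blank and 0.12 for CuO minus CuCl2. On the cy5 arrays they were -0.86, -1.47 and 0.60. CuO minus CuCl2 was above 0 for 103 probes on cy3 and 135 on cy5, against 2163 and 2278 of all 4247 probes. Both CuCl2 values lay below both CuO values for 10 probes with cy3 and 82 with cy5, against 13.5% and 23.4% of all probes. In both orientations this held for 5 of the 136, a share near the 3.2% of all probes. The rule used the CuCl2 and CuO means of these same arrays, so nothing is read from these counts.

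The term for this split, CuCl2 minus blank on cy5 less the same on cy3, had a median of -0.58 and was below 0 for 124 of the 136, while over all probes its median was -0.01. For CuO minus blank the same term had a median of -0.07. In the limma fit of group by dye orientation over all 12 arrays 0 of the 136 passed for CuCl2 (smallest adjusted p = 0.775) and 0 for CuO, against 0% of all probes in each. At an unadjusted p under 0.05 there were 3 for CuO, where 2.64% of all probes were, and 15 for CuCl2, where 6.1% were. One probe was called for CuCl2 without CuCl2 pool 3 or without blank pool 1, and 1 for CuO without blank pool 1. In a balanced design with arrays of equal spread these terms are independent of the values that chose the probes. The wider array of CuCl2 pool 4 breaks that balance, so the counts are given as a description.

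The probes also leaned to lower ratios on the cy5 arrays as a whole. The dye term, cy5 minus cy3, had a median of -0.52 over the 136 and -0.04 over all probes. It passed limma's test for 49 of them (36.0%), against 32.7% of all probes. Called lower on cy5 were 48 of the 136 (35.3%), against 18.9% of all probes. Among called probes alone, these were 48 of 49, against 801 of 1388 over all probes. The probes were chosen on these same arrays, and the wider array of CuCl2 pool 4 is a cy5 array. The choice can therefore itself lower the dye term, so these counts too are given as a description. The cy5 minus cy3 difference had a median of -0.37 within the CuO group, -0.87 within the CuCl2 group and -0.27 within the blank group, so that all 3 groups showed it. The 82 probes lowered by both forms had a median dye term of -0.50. DM10599P1 (dye term -1.605, SE 0.26, limma adjusted p = 0.0011), DM04943P3 (-1.49), DM04265P3 (-1.40) and DM04819P1 (-1.31) had the largest terms past the threshold. In DM10599P1 the blanks stood at 0.88 and 1.15 on cy3 and at -0.30 and -0.32 on cy5, so that values of the 2 orientations cannot be set side by side without centring. DM04943P3 was unlike the others in its pools. Its CuCl2 pool 3 stood at -3.03 and its pool 4 at -0.39, and CuCl2 minus blank was -1.38 with all pools, -0.80 without CuCl2 pool 3 and -1.80 without CuCl2 pool 4.

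In the fit of group and dye over all 12 arrays, 73 of the 136 were called lower in CuO than in blank, where 12.7% of all probes were, and 124 lower in CuCl2 than in blank, where 19.5% were (limma, adjusted p under 0.05). The rule used these contrasts, so nothing is read from the counts. The CuO count was 36 without blank pool 4, 40 without CuO pool 3, 48 without CuO pool 1, 48 without blank pool 2 and 34 with no dye term. Shares of all probes at these settings are not given here, so a drop particular to the 136 cannot be read from them. Between CuO and CuCl2, 0 of the 136 and 0% of all probes passed, and at an unadjusted p under 0.05 there were 9 (6.6%), against 4.66%. After dye centring the 4 CuO values all lay below the 4 blank values for 75 probes (15.1% of all probes), and the 4 CuCl2 values below the 4 blank values for 107 (18.5% of all probes). The 4 CuCl2 values all lay below the 4 CuO values for 3 probes (2.12% of all probes).

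The opposite rule, CuO minus blank at most -1 and CuCl2 minus blank above -1, was met by 11 probes. Their CuO minus blank had a median of -1.12 and their CuCl2 minus blank one of -0.76. The 136, the 82 lowered by both forms and these 11 make up all 229 probes at or below -1 in at least 1 copper group. No 2 of the 4247 probes shared the number in their name, so no second probe of the same number was there to compare. By the ending of the name, 68 of the 136 were P1 (50%, against 42.1% of all probes), 33 P2, 28 P3 and 7 P4.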

How the data were processed

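Per the labels' protocols, 100 ng of total RNA of each pool was labelled by Agilent's Low Input Quick Amp method. The authors deposited 1 value table with 12 columns and 4262 rows, of which 15 control rows were set aside, leaving 4247 probes with 0 missing values. Its values are log ratios of the 2 channels, read as log2, the scale of limma, which the submitters' processing notes name. Background correction, normalization and the choice of probes are not given in the sources, and scanner intensities were not used here. Column medians were 0.041, -0.005, -0.011 and -0.009 for CuO replicates 1 to 4, 0.003, 0.006, -0.022 and -0.057 for CuCl2 replicates 1 to 4, and -0.026, -0.017, -0.019 and -0.053 for blank replicates 1 to 4. Log base and direction stay unknown, and the number of arrays limits the precision.

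Values were used as deposited and not turned. Dye-centred values subtract, per probe, the mean of the 6 arrays of an orientation. The fit used limma 3.58.1 in R 4.3.3 with group and dye orientation (8 residual degrees of freedom), or group by dye (6), on all probes, with Benjamini-Hochberg adjustment over the 4247. It was checked on simulated data. Alternatives were centring, scaling, quantile normalization, the dye term, the replicate block, the prior, array weights, the thresholds, one orientation alone and each array left out. The settings that combine scaling with leaving out CuCl2 replicate 4, leave out CuCl2 replicates 2 and 4, use dye-adjusted differences with an array left out, or read a single CuCl2 pool were chosen after the data were seen. The probes and lists were chosen with earlier results of these data known.

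Named probes were, among the 136, the 6 lowest for CuCl2 minus blank, the 6 largest for CuO minus CuCl2, the 3 with the widest CuCl2 range, the 3 with the smallest residual SD, the 4 largest dye terms past the threshold and the 4 largest interaction terms, with the 3 nearest on each side of each threshold. No probe had its CuCl2 values below all CuO and all blank values, and none shared an ID number.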

Additional observations from a re-analysis of the deposited data

Results flagged for a closer look

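An array far from the other 3 of its group was looked for in 57 sets, and 3 such cases were found. Chance alone would give roughly 1 in 20 sets, which is about as many, so the number of cases is no excess. The SD of the log2 ratios over all probes was 0.357 on the array of CuO pool 4, against 0.429 to 0.439 on the other CuO arrays. It was 0.711 on that of CuCl2 pool 4, against 0.386 to 0.434 on the other CuCl2 arrays. In DM06476P3 the dye-centred log2 ratio was -2.79 in CuCl2 pool 4, against -0.17 to 0.09 in the other CuCl2 pools. The part of array scale in these values was not tested.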

How the results depend on the processing

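The number of probes meeting the rule (136) was 64 on the cy3 arrays, 253 on the cy5 arrays, 31 with a gap of at least 0.5, and 70 with scaled arrays and CuCl2 replicate 4 left out. It ran from 68 (without CuCl2 replicate 4) to 243 (without CuCl2 replicate 2), or from 87 to 207 with the dye term in the differences. Leaving out CuCl2 replicates 2 and 4 together gave 159. The calls of the 136 for CuO against blank (73) were 0 on the cy3 arrays, 8 on the cy5 arrays, 34 with no dye term, and 36 to 96 with 1 array left out. Those for CuCl2 against blank (124) were 0 on the cy3 arrays. Of all probes, 0.0706% were called lower than blank on the cy3 arrays for either copper form, and 1.04% for CuO on the cy5 arrays. Shares of all probes at the other settings are not given here. Interaction calls ran from 0 to 1 with 1 array left out. The gap for probes chosen on cy3 and read on cy5 was 0.15 with scaled arrays and 0.17 after quantile normalization. The cause was not tested in these cases, beyond the smaller number of arrays in the fits on one orientation. The other 134 of 155 such alternatives stayed within 1.5 times, or for the medians within the spread between pools. This tally compares counts and not which probes they hold. With both thresholds at -0.8, 173 probes met the rule, but only 57 of the 136 were among them. The 134 also include 21 settings of the calls between CuO and CuCl2, which were 0 in each.

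Of 357 values of CuCl2 minus blank for the 17 named probes other than those at the thresholds, 2 turned their sign, both on the cy3 arrays alone: 0.15 for DM07834P1 and 0.12 for DM05482P1. A further 12 moved by over 1 residual SD, on the arrays of one orientation alone. Many of the 357 could not move. Leaving out a CuO array, the dye term, the replicate block and the robust prior do not alter this difference. Replicate numbers did not pair the samples, since deviations of same-numbered arrays correlated between -0.36 and 0.32 with 4 of 12 above 0.1, and 1 of 24 best matches had the same number. With the replicate block 77 of the 136 were called for CuO against blank, 127 for CuCl2 against blank and 0 between CuO and CuCl2. The shares of all probes with that block are not given here.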
